A study of Caenorhabditis elegans with 2 samples.

Results

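Pax genes encode transcription factors with a paired domain, a DNA-binding domain that reads long sites through an N-terminal and a C-terminal subdomain. Some members also carry a homeodomain. They act in the choice of cell fates during the formation of organs, and in several animals Pax proteins are known to control their own genes or those of relatives. Whether PAX-1 peaks lay in or near the genes of its own family was examined here for 10 Caenorhabditis elegans genes, taken by name from the WBcel235 annotation, out of 19973 protein-coding genes on the nuclear chromosomes. They were pax-1 itself; pax-2 and egl-38, the pair related to vertebrate PAX2; pax-3, of the vertebrate PAX3 class; vab-3, the worm PAX6 relative; eyg-1, named for Drosophila eyegone; and npax-1, npax-2, npax-3 and npax-4, named for a paired domain reduced to its N-terminal part.

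PAX-1 was mapped by chromatin immunoprecipitation and sequencing (ChIP-seq) in strain OP117, genotype unc-119(ed3) III; wgIs117, whose wgIs117 transgene carries pax-1 with an enhanced green fluorescent protein (eGFP) tag. Whole late embryos of mixed sex were used, in 2 biological replicates of 1 group. No untagged or untreated group was part of the series, so no peak could be set against a background measured without the tag, and no test between groups was possible. The transgene adds pax-1 sequence to the endogenous gene, and the 2 sources cannot be told apart. Each peak is an average over all cell types of the embryo, so fewer cells with a bound site and weaker binding per cell cannot be told apart. The control alignment that the authors used was not analysed here.

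All 4 ce11 peak lists were used. Those of replicates 1 and 2 held 30000 and 29397 peaks and the list called on both replicates pooled held 30000. These lists include background by the authors' design. The thresholded list held the 714 pooled peaks with the highest signal, from 58.3 upwards. The signal value is the authors' own and its scale is not given, so it ranks peaks within a list only, with rank 1 the highest. Read totals are in none of the lists, and the depth behind each value is unknown.

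No thresholded peak lay in any of the 10 Pax genes or within 10 kb of one, while 15.5% of all protein-coding genes had such a peak within 10 kb and 1.82% were overlapped by one. In a list of 10 genes a count of 0 is near that background, and no test was made. Lower in the data, 8 of the 10 genes had pooled peaks within 10 kb, against a background of 96.8%, and 5 of the 10 were overlapped by one, against 47.8%. In all there were 58 such peaks, 10 in a Pax gene and 48 beside one. Their signals ran from 15.5 to 31.7 with a median of 20.2, close to the median of 20.5 over all nuclear pooled peaks, and their ranks from 3596 to 28872. The highest of them thus lay well below the lowest thresholded signal of 58.3, and its −log10 q in the pooled list was 0.281. In the single lists −log10 q reached 3.03 in replicate 1, for a peak near npax-2 that replicate 2 lacked. In replicate 2 it reached 0.955, for a peak near npax-1. These values are read within a list only, since 3.03 stood at rank 1615 of replicate 1 and 0.955 at the better rank 591 of replicate 2. In the single replicates, 9 of the 10 genes had a replicate 1 peak within 10 kb (background 96.7%) and 8 a replicate 2 peak (98.5%), while 6 were overlapped by a peak of replicate 1 (48.5%) and 5 by one of replicate 2 (50.2%).

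**Figure D1:**
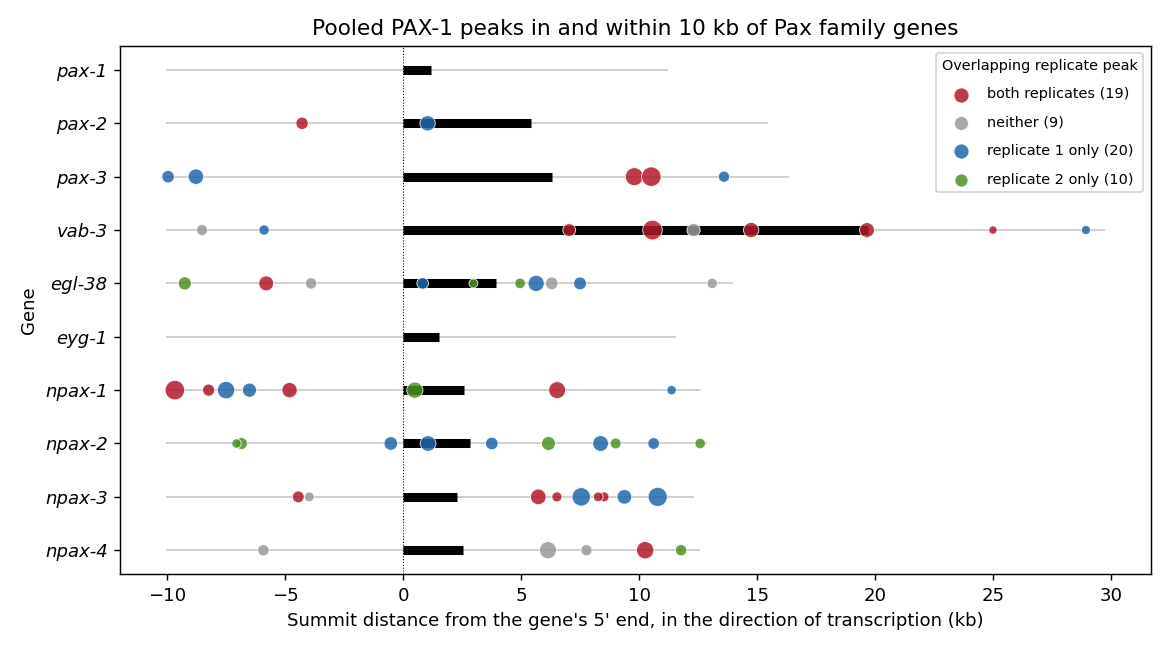
Pooled PAX-1 peaks near the 10 Pax genes, with the summit's distance from the gene's 5' end in kb along the direction of transcription on the x axis and 1 row per gene. Black bars are genes, grey lines reach 10 kb to each side, dot area grows with the authors' signal (15.5 to 31.7) and colours show which replicate lists held an overlapping peak; vab-3 holds 5 of the 10 peaks inside genes, and pax-1 and eyg-1 have none.

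The sequences at the pooled summits that bear most on the family are given first. They are 151 bases of the RefSeq WBcel235 genome, written 5′ to 3′ on the strand of the Pax gene: the highest peak in any Pax gene, a vab-3 peak upstream of an internal start, the peak at an internal start of pax-2, the peaks in the first part of egl-38 and npax-1, the only peak in an upstream flank whose nearest start was a Pax start (npax-2), and the one site that a replicate ranked among its 714 highest (beside npax-1). Capitals mark any of 5 words searched on both strands: CGTCACG and GTCACGC, 2 overlapping versions of a paired domain core; TAATTA, a homeodomain core; and AGAGAC and CGTCTC, which share 5 letters and were already known to be common at the thresholded summits.
vab-3 (chrX:10510382-10510532, plus strand), intron, pooled rank 3596: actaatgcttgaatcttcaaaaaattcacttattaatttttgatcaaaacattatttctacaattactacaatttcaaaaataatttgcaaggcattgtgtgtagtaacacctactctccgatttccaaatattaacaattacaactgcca
vab-3 (chrX:10514567-10514717, plus strand), intron, pooled rank 9458: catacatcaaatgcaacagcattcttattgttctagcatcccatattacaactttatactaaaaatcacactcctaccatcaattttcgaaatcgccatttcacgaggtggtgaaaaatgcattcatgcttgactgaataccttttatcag
pax-2 (chrIV:4203260-4203410, minus strand), intron, pooled rank 9373: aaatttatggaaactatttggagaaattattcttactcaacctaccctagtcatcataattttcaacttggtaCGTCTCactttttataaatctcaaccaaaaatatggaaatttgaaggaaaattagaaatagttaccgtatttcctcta
egl-38 (chrIV:10109615-10109765, minus strand), intron, pooled rank 18578: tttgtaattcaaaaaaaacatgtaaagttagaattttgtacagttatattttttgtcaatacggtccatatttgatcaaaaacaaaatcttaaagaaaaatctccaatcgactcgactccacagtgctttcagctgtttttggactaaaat
npax-1 (chrII:7330754-7330904, minus strand), intron, pooled rank 7744: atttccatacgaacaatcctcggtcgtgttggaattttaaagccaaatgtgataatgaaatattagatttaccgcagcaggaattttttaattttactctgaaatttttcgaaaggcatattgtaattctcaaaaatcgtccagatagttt
npax-2 (chrX:2150552-2150702, minus strand), intergenic, pooled rank 13293: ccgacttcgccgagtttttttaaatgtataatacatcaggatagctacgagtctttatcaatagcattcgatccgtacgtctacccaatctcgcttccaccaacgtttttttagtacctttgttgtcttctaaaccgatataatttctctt
npax-1 (chrII:7336057-7336207, minus strand), intergenic, pooled rank 9552: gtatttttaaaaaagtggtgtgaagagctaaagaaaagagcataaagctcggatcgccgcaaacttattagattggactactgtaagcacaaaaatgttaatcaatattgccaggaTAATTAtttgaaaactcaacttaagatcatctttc

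Of the 58 windows, 11 held at least 1 of the words. CGTCACG and GTCACGC occurred in 0 of the 58 windows near Pax genes, against 0.56% and 0.354% of all nuclear pooled windows and 3.3% and 1.87% of the thresholded ones. TAATTA was in 5 of 58, 8.62% against 8.79% of all pooled windows. AGAGAC was in 5 (8.62%) and CGTCTC in 2 (3.45%), against 6.34% and 4.8% of pooled windows and 31.0% and 28.3% of thresholded windows. AGAGAC and CGTCTC were already known to be common at thresholded summits, and none of the 58 peaks was thresholded. Their gap to the thresholded shares was therefore largely set in advance. Counts of 0 to 5 in 58 windows are too few to show likeness to pooled windows. The mean G+C near Pax genes was 31.8%, nearer to that of all pooled windows (32.5%) than to that of thresholded windows (43.8%). From 250 bases before to 50 after the gene's start, the promoters of vab-3, egl-38 and npax-2 held AGAGAC, a word in 14.4% of all promoters of that length. The vab-3 promoter also held CGTCTC (11.2% of all promoters) and that of pax-2 held TAATTA (15.5%), while neither paired domain word was in any of the 10 (1.33% and 1.1% of all). A match is a run of letters, not a binding site.

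The gene for the tagged factor stood in a stretch without peaks. On chromosome V, pax-1 (WBGene00003937) runs from 8224934 to 8226116 on the plus strand, and it had no peak within 10 kb in any of the 4 lists, which 3.18% of all protein-coding genes shared for the pooled list. The nearest peaks were 16.0 kb away in replicate 1, 17.13 kb in replicate 2 and 20.91 kb in the pooled list. The transgene adds pax-1 sequence at this locus, and how that affected peak calling was not examined. A missing peak here does not show missing binding.

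vab-3, needed for the shape of the head and for several epidermal and neural fates, held 5 of the 10 pooled peaks inside Pax genes. The gene (WBGene00006870) lies on chromosome X from 10499890 to 10519580 on the plus strand and at 19.7 kb is the longest of the 10. Of the 5 peaks, the most of any member, 4 overlapped a peak in both replicates. No other Pax gene had an in-gene peak found in both, a state that 23.2% of all protein-coding genes reached. The whole window, with 10 kb on each side, held 9 pooled peaks, or 0.227 per kb against a median of 0.278 per kb over all protein-coding genes. By density vab-3 was therefore below the median gene.

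The highest vab-3 peak (chrX:10510285-10510628) lay in an intron, 4561 bp from the nearest vab-3 start, with a pooled signal of 31.7. The overlapping peaks had a signal of 12.3 in replicate 1 (rank 12907) and of 15.1 in replicate 2 (rank 8218), and their summits were 270 bp apart. Both replicates thus had a peak there, with separate summits. A second intronic peak, whose summit was 782 bp upstream of the internal start at 10515424, had a pooled signal of 23.9. It had a signal of 17.6 in replicate 1 (rank 4898) and of 11.6 in replicate 2 (rank 18701). A vab-3 protein without the paired domain is known to come from an internal start, but which of the annotated internal starts gives it was not examined. Another intronic peak, 1035 bp downstream of the start at 10505896, had a pooled signal of 20.4 and went the other way, with rank 23115 in replicate 1 and rank 3554 in replicate 2. The fourth lay over the 3' end, in untranslated sequence, with a pooled signal of 23.3 and ranks 21132 and 10334, and its replicate summits were 78 bp apart. The fifth, at a pooled signal of 20.9, had no overlapping peak in either replicate. The best rank of any peak within 10 kb of vab-3 was 4898 in replicate 1 and 3554 in replicate 2.

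pax-2 and egl-38 are close relatives on chromosome IV. egl-38 acts in the egg-laying system and the hindgut, and both genes are known to promote cell survival through the BCL-2 family gene ced-9. Their coding sequences were 90.2% identical over aligned bases and 74.3% over all alignment columns, gaps included. The other 44 pairs of members reached at most 75.6% and 50.5% on these measures. The longest exact run shared by the 2 genes was 60 bp, against at most 17 bp in the other 44 pairs. In runs of 30 or more bases they shared 233 bases. Of the pooled peaks near the pair, only the one in a coding exon of egl-38 (signal 16.0) touched such a run. The sources used here do not say how reads from shared runs were placed, so that peak is uncertain.

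pax-2 (WBGene00003938, 4198973 to 4204375, minus strand) had 2 pooled peaks within 10 kb, fewer than most genes, whose median was 6. The first (signal 24.0) lay in an intron 69 bp downstream of the internal start at 4203404. Replicate 1 had a peak there with a signal of 17.3 (rank 5131). Replicate 2 had none there, and its only peak in pax-2 had a signal of 10.4 (rank 24352) in an intron 1402 bp downstream of that start. The replicates thus did not share a site within pax-2. The other pooled peak was in osgn-1, 4110 bp from pax-2, at ranks 25939 and 19985.

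egl-38 (WBGene00001204, 10106599 to 10110517, minus strand) had 10 pooled peaks within 10 kb, as many as npax-2 and the most of the family. The 2 inside the gene had signals of 18.9, in an intron 827 bp downstream of the start, and of 16.0, in a coding exon. The first was matched only in replicate 1 (signal 12.2, rank 13196) and the second only in replicate 2 (signal 9.58, rank 29020). The highest pooled peak in the window (signal 25.4) lay 1552 bp beyond the 3' end, in an intron of the neighbour dis-3, an exosome nuclease gene, and only replicate 1 had it (rank 7740). Only 1 of the 10 peaks overlapped both replicate lists, at C04G2.10 with ranks 26340 and 28374.

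pax-3 (WBGene00003939, chromosome II, 10146570 to 10152865, plus strand), which acts in epidermal cells, was not overlapped by a peak in any list. Its 5 pooled peaks were 3328 to 9787 bp away. The highest (signal 31.4, rank 3703) was intergenic, 4052 bp beyond the 3' end and 1683 bp from the start of nlp-63, a neuropeptide-like gene. It had a signal of 11.4 in replicate 1 (rank 15150) and of 15.4 in replicate 2 (rank 7761), with summits 63 bp apart, the smallest gap between the best overlapping peaks at the 19 sites found in both. Both replicates thus had a peak there, in the upper part of the replicate 2 list and near the middle of the replicate 1 list. Replicate 1 had 9 peaks within 10 kb and replicate 2 had 2, the largest difference of this kind in the family, and the highest of replicate 1 (signal 25.4, rank 1944, near phg-1) had no counterpart in replicate 2.

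eyg-1 (WBGene00013147, chromosome II, 9826448 to 9827952, minus strand) had no pooled peak and no replicate 2 peak within 10 kb. Replicate 1 had 3, with signals of 8.86 in a coding exon of eyg-1, 8.59 and 12.8, the best at rank 11659. Just outside the window, pooled and replicate 2 peaks began at 10.15 kb from the gene.

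**Figure D2:**
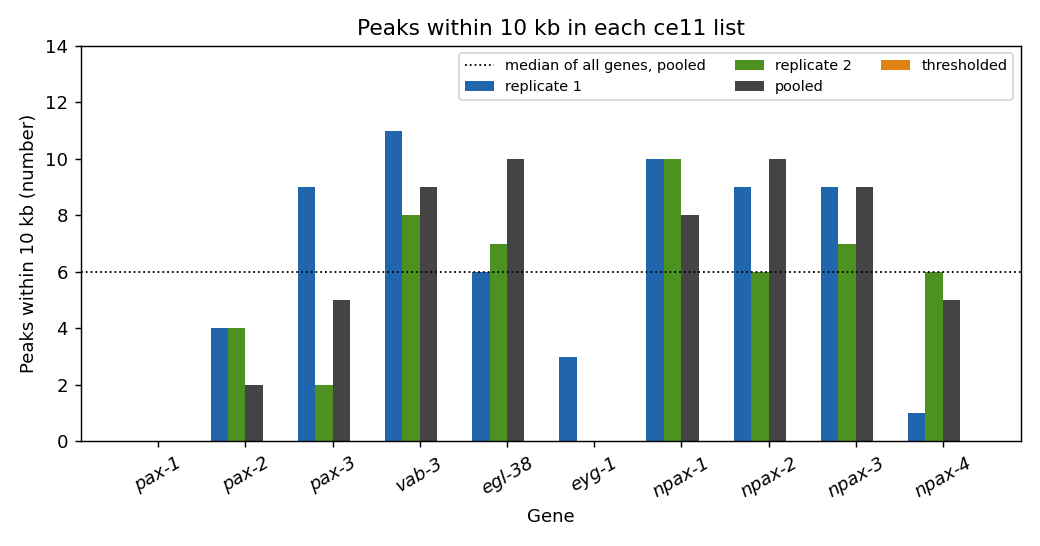
Number of peaks within 10 kb of each Pax gene (y axis) in the lists of replicate 1, replicate 2, both pooled, and the thresholded list, by gene (x axis); the dotted line is the median of 6 pooled peaks over all protein-coding genes. The thresholded bars are all at 0, pax-1 has none in any list, and pax-3 has 9 in replicate 1 and 2 in replicate 2.

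The npax genes had peaks mostly at their neighbours. npax-1 (WBGene00017664, chromosome II, 7328736 to 7331324, minus strand) had 8 pooled peaks within 10 kb, 1 of them in the gene. Of the 8, 4 overlapped both replicate lists, against 36.5% of all nuclear pooled peaks. The peak in the gene (signal 25.4) was intronic, 495 bp downstream of the start. Replicate 2 had 2 peaks over it, with signals of 18.1 (rank 4003) and 15.5 (rank 7565), and replicate 1 had none there. The only replicate 1 peak in npax-1 lay over its 3' end, with a signal of 10.4 (rank 18442), so the replicates shared no site within the gene.

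An intergenic site 4636 bp upstream of npax-1 and 3097 bp upstream of nhr-21, a nuclear hormone receptor gene, was the only one near any Pax gene that a replicate placed among its 714 highest. In replicate 2 its signal was 27.8 and its rank 591. In replicate 1 the overlapping peak had a signal of 8.44 and rank 27203, with a summit 292 bp away, and the pooled signal was 23.9 (rank 9552). The site was therefore high in 1 replicate only. Over all protein-coding genes, 15.3% had such a peak of replicate 2 within 10 kb and 15.5% had one of replicate 1, against 1 of 10 and 0 of 10 Pax genes. The best replicate 1 peak in the window (signal 30.3, rank 1342) lay 404 bp upstream of nhr-21 and had no counterpart in replicate 2. The highest pooled peak in the window (signal 31.4, rank 3707) lay in untranslated sequence of nhr-21. It overlapped both replicate lists, at rank 21679 in replicate 1 and rank 7509 in replicate 2.

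npax-2 (WBGene00018591, chromosome X, 2147279 to 2150106, minus strand) had 10 pooled peaks within 10 kb, and none of them overlapped both replicate lists. The peak upstream of its start, whose summit was 521 bp away, had a pooled signal of 21.4 and a signal of 22.8 in replicate 1 (rank 2473). The nearest replicate 2 peak upstream was 1372 bp from the start, with a signal of 10.7 (rank 22943). A peak in a coding exon (pooled signal 24.5) was likewise in replicate 1 only (rank 8189). The best peak of replicate 1 (signal 27.8, rank 1615) was intergenic, 5373 bp beyond the 3' end, and replicate 2 had none there. Its pooled peak (signal 24.7, rank 8480) was the highest in the window. The best peak of replicate 2 (signal 20.9, rank 2119) lay 3160 bp beyond the 3' end, and replicate 1 had none there. Both were on the far side of the start of dpy-3, a cuticle collagen gene, 3908 and 1697 bp downstream of it. The replicates thus had separate sets of peaks around npax-2.

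npax-3 (WBGene00011257, chromosome IV, 10825870 to 10828149, minus strand) was not overlapped by a peak in any list. Of its 9 pooled peaks, 7 lay in introns of the neighbour miz-1, among them the highest (signal 30.7, rank 4050), which was in replicate 1 only (rank 2141). In all, 5 of the 9 overlapped both replicate lists, against 36.5% of all nuclear pooled peaks. Some of these share the same replicate peaks. The peak nearest to the start of npax-3 was one of replicate 2 alone, 557 bp upstream, with a signal of 11.8 (rank 17968). npax-4 (WBGene00007496, chromosome IV, 8877390 to 8879910, minus strand) had 5 pooled peaks within 10 kb and none in the gene, and replicate 2 alone had one in a coding exon (signal 13.8, rank 11262). Its highest pooled peak (signal 27.3, rank 6000) lay at the start of npp-23, a nuclear pore gene, 7571 bp away. With a signal of 23.2 in replicate 1 (rank 2355) and of 15.8 in replicate 2 (rank 7081) it was the only peak near a Pax gene within the 10000 highest of both replicates.

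**Figure D3:**
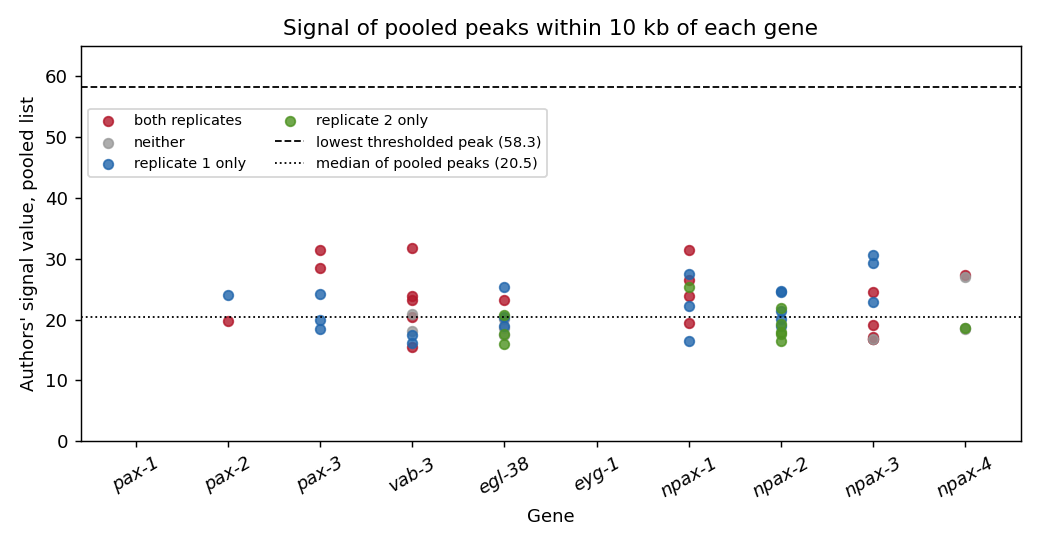
Authors' signal value in the pooled list (y axis) of every pooled peak within 10 kb of each Pax gene (x axis), coloured by the replicate lists that held an overlapping peak. All 58 lie between 15.5 and 31.7, below the lowest thresholded peak at 58.3 (dashed) and on both sides of the pooled median of 20.5 (dotted).

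Replicate support was next compared over all members. Of the 58 pooled peaks, 19 (32.8%) overlapped a peak in both replicate lists by at least 1 bp, against 36.5% of all nuclear pooled peaks. Taking each replicate alone, 39 of the 58 overlapped a replicate 1 peak (62.6% of all nuclear pooled peaks did) and 29 a replicate 2 peak (64.7%). In exclusive terms, 20 overlapped replicate 1 only, 10 overlapped replicate 2 only and 9 (15.5%) overlapped neither, against a background of 9.22% for neither. Peaks found in both were present near 7 of the 10 genes, where 80.0% of all protein-coding genes had one. The replicate peaks at such a site need not overlap each other. They did not at the vab-3 site near git-1, nor at the npax-3 sites with pooled signals of 16.9 and 16.8. Summits of both replicates lay within 100 bp of the pooled summit at 4 of the 58 (6.9%), against 19.0% of all nuclear pooled peaks. These 4 were at nlp-63 beside pax-3, at the 3' end of vab-3, and at F21D12.3 and nhr-21 beside npax-1. Neighbouring peaks share reads and regions, so the 58 are not independent.

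**Figure D4:**
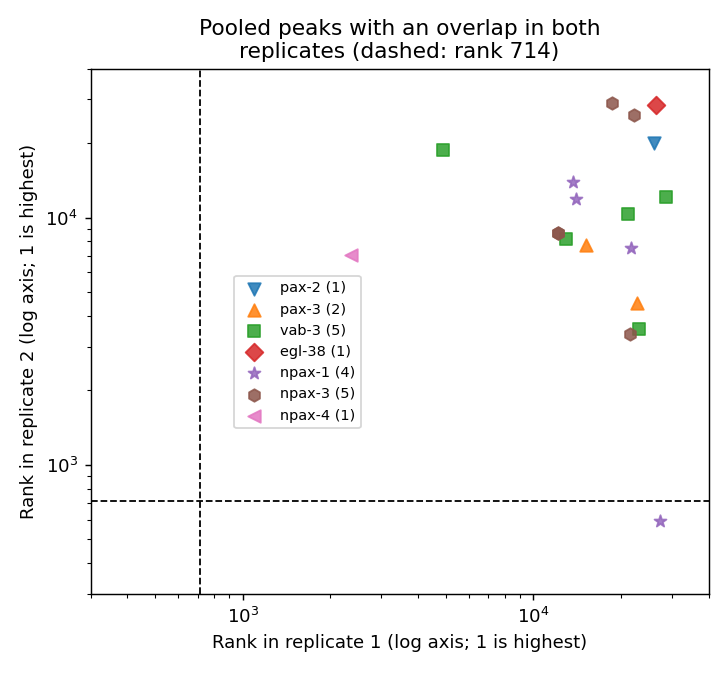
Rank in replicate 1 (x axis, log) against rank in replicate 2 (y axis, log) of the best overlapping peaks at the 19 pooled peaks found in both, by gene; 2 npax-3 points coincide because both pooled peaks overlap the same replicate peaks. Dashed lines mark rank 714, which is passed once, at rank 591 in replicate 2 by a site beside npax-1 whose rank in replicate 1 is 27203.

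Position gave a similar picture. The nearest protein-coding start belonged to a Pax gene for 13 of the 58 peaks and to another gene for 45. Within 1000 bp of the summit there was a Pax start for 5 peaks and the start of another gene for 18. Together these 23 are 39.7% of the 58, against 45.2% of all nuclear pooled peaks and 68.1% of nuclear thresholded peaks. The 5 were those in pax-2, egl-38 and npax-1, the one upstream of the internal start of vab-3, and the one upstream of npax-2. None of the 5 was within the 714 highest of a replicate, and 1 of them, in vab-3, overlapped peaks of both replicates. By summit, 24 of the 58 lay in introns, 21 between genes, 8 in coding exons and 5 in untranslated regions.

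By the rank of the best pooled peak within 10 kb, the Pax genes with a peak lay from near the middle of all genes downwards. The order from the highest was vab-3, pax-3, npax-1, npax-3, npax-4, egl-38, npax-2 and pax-2, at ranks 3596, 3703, 3707, 4050, 6000, 7723, 8480 and 9373. The first 3 had signals of 31.7, 31.4 and 31.4, and no error can be given for a single pooled peak, so their order carries no weight. The median of these 8 ranks was 5025, against 3353 over the 19338 protein-coding genes with a pooled peak in reach, and none of the 8 was above that median. Between 50.5% of all protein-coding genes, for vab-3, and 79.2%, for pax-2, had a better-ranked peak. For pax-3, npax-1 and npax-3 the share was 51.3%, 51.3% and 53.7%. The members' median gene length was 2710 bp, against 2030 bp over all genes.

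**Figure D5:**
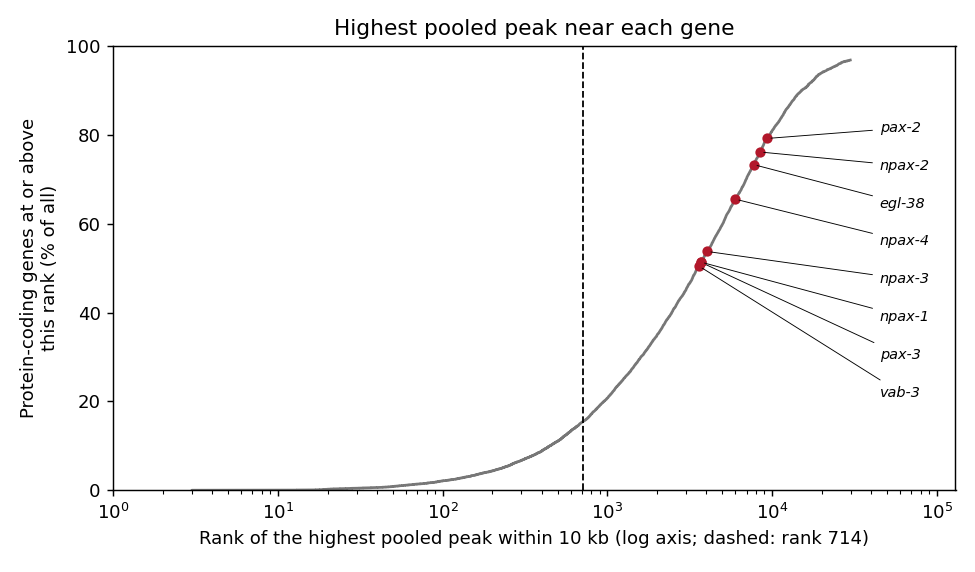
Share of all 19973 protein-coding genes (y axis, %) whose highest pooled peak within 10 kb is at or above a given rank (x axis, log), as a grey curve, with the 8 Pax genes that have a peak as red points. The points lie from rank 3596 (vab-3) to rank 9373 (pax-2), all to the right of the dashed line at rank 714.

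The nearest thresholded peaks lay outside the window for every member. The closest was 13.9 kb from npax-4 (signal 74.8, nearest start rad-54.L2), and the others were from 39.7 kb, at egl-38, to 274 kb, at pax-1. The median distance was 68.7 kb, against 55.0 kb over all protein-coding genes. At the edge of the window, the farthest pooled peaks counted were 9787 bp from pax-3 and 9591 bp from npax-2, and the nearest left out were 10.15 kb from eyg-1 (signal 19.0) and 10.48 kb from npax-4 (signal 23.3).

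A list of 12 genes known to act with Pax genes, or reported downstream of egl-38, pax-2 or vab-3, gave no thresholded peak within 10 kb either (0 of 12, background 15.5%). All 12 had a pooled peak within 10 kb (background 96.8%), 8 were overlapped by one (47.8%), and the median best rank was 4526. Over all protein-coding genes with a pooled peak within 10 kb, the median best rank was 3353. The list held the sine oculis relatives ceh-32, ceh-33, ceh-34 and unc-39, the eyes absent and dachshund relatives eya-1 and dac-1, and lin-48, lin-3, ced-9, ina-1, pat-2 and hlh-17. The highest peak was near ced-9, the survival gene downstream of egl-38 and pax-2. Its pooled signal was 56.8 (rank 771), just under the lowest thresholded signal, and both replicates had it, at rank 1147 in replicate 1 and rank 1941 in replicate 2. It lay 6302 bp from ced-9, and the nearest start, 1093 bp away, was that of nex-2, an annexin gene. Of all protein-coding genes, 15.5% had a pooled peak among the 714 highest within 10 kb. A peak at rank 771 near a gene in a list of 12 is therefore near background. For 9 of the 12 genes, ced-9 among them, the start nearest to the best peak was that of another gene. These include the next in rank, pat-2 (rank 2885, nearest start F44E2.3), dac-1 (rank 3286, nearest start clec-149) and ina-1 (rank 3317, nearest start dgk-3). The dac-1 peak overlapped dac-1 itself, and the clec-149 start was 1992 bp away. The other 3 genes had a best peak nearest to their own start. That of ceh-32 (signal 29.8) lay 2901 bp from it, at ranks 9914 and 3895 in replicates 1 and 2. The best peak of unc-39 (signal 29.5) lay 816 bp from its own start at ranks 6774 and 4670, and that of eya-1 (signal 32.2) lay in the gene 597 bp from a start at ranks 19252 and 1859. ceh-33 and ceh-34 are neighbours whose windows overlap, so they share peaks.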

How the data were processed

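Both biological replicates were profiled by ChIP-seq. Per the deposited file listing, the authors called peaks, background included, for each replicate and for both pooled against a control alignment. An irreproducible discovery rate (IDR) step on these lists gave the thresholded list. No aligner, peak caller or IDR threshold is named in the labels or the listing. The signal (column 7) and the −log10 q (column 9) of each peak are the authors' deposited values. The ce10 lists were not used.

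Peaks were placed on the Ensembl 115 annotation of WBcel235, the ce11 assembly, and counted when any base lay within 10 kb of the gene. Replicate support meant at least 1 bp of overlap. Unmatched columns with values per sample numbered 0. With 1 group there was no test: counts stand beside the same count over all nuclear protein-coding genes or pooled peaks. Members and lists were chosen with earlier results of these data known. Named were all members, the 12 related genes, and the gene with the nearest start for described peaks. dis-3, which holds an egl-38 neighbour peak, was named after its values were seen. The planned comparison of protein sequences was not run. Coding DNA was aligned instead, a choice made later. The counting steps were tested on simulated peaks. Python 3.11.15, numpy 2.4.6, pandas 2.3.3 and matplotlib 3.10.9 were used.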

Additional observations from a re-analysis of the deposited data

How the results depend on the processing

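Of 28 alternative counts, 18 were within 1.5 times the reported count, 12 of them equal to it, 3 higher and 3 lower. Within 20 kb, 1 member (npax-4) had a thresholded peak, and with the 714 highest peaks of a single replicate 0 to 1 members had one (npax-1, with replicate 1 left out). Pooled peaks near members numbered 28 within 5 kb, 101 within 20 kb and 27 among the 15000 highest, and 50 to 62 when a single replicate's list was used. Those in both replicates numbered 12 within 5 kb, 32 within 20 kb, 9 when at least 50% of the shorter peak had to be shared, 4 with summits within 100 bp, and 6 with the upper 15000 and 14698 peaks of the replicates. The share of all protein-coding genes with a thresholded peak was 9.88% within 5 kb, 25.2% within 20 kb, 15.3% by summit, 14.1% around transcript starts, 7.91% with the 357 highest, and 15.3% to 15.5% with a single replicate. For pooled peaks it was 90.1% within 5 kb, 99.4% within 20 kb, 89.8% with the 15000 highest, and 96.7% to 98.5% with a single replicate. These alternatives count more or fewer bases or peaks, or another list, by construction. No paired analysis was possible because there was 1 group. The unknown depth means that a missing peak does not show missing binding.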
